A study of Mus musculus with 3 samples.

Results

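The fibroblast growth factor (FGF) genes examined here were the ligands and homologous factors Fgf1 to Fgf18 and Fgf20 to Fgf23, the receptors Fgfr1 to Fgfr4 and Fgfrl1, the feedback inhibitors Spry1 to Spry4, Spred1 to Spred3 and Dusp6, and the transcription factors Etv1, Etv4 and Etv5. They were chosen by symbol and not by a cut on signal, although earlier results of these data were known. Of the 38 genes, 37 were measured, out of 18194 genes in all, on 84 probe sets. The 3 probe sets of Etv1 are annotated to a second gene as well, so Etv1 was left out. The study profiled 3 samples of astrocytes grown from mouse embryonic stem cells, labelled wild type, which form 1 group with no control. The stem cells passed through embryoid bodies for 4 days and a selection medium, written ITSFn, for 5 to 7 days, and the neural precursors were kept in FGF2 and a factor written EGF2. At 18 passages from the embryoid bodies both factors were removed, and 5% fetal bovine serum was given for 5 days, so every array comes from cells without added FGF2. Total RNA was taken, and biotin-labelled material was read on Affymetrix Mouse Genome 430 2.0 arrays in 1 colour.

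FGFs are signalling proteins that bind receptor tyrosine kinases together with heparan sulfate, and the activated receptor drives the RAS-ERK kinase cascade. ERK signalling switches on its own inhibitors, the Sprouty, Spred and Dusp6 genes, and the ETS factors of the Etv4 and Etv5 family, so these transcripts are widely used as readouts of FGF activity. In the nervous system FGF2 keeps neural precursors dividing in culture, and FGF receptors, Fgfr3 among them, are expressed by astrocytes.

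The gene starts of members that were above background are shown as sequence, because ETS factors stand among the genes examined. RefSeq promoter windows (GRCm38.p6) matched 27 of 37 measured members. The 250 bases before the start were searched on both strands for the ETS motif CCGGAAG and the GC box GGGCGG, which did not overlap in the windows printed. The capitals mark these matches, and the windows were picked to show a receptor gene with both motifs, a feedback gene with the GC box and a feedback gene with neither.
Fgfrl1, chr5:108693979-108694228, + strand: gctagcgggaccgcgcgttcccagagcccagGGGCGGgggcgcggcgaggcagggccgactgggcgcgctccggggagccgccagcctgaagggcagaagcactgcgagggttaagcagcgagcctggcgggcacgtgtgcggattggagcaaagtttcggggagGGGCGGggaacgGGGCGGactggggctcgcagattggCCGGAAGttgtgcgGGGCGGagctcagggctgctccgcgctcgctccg
Spry1, chr3:37639697-37639946, + strand: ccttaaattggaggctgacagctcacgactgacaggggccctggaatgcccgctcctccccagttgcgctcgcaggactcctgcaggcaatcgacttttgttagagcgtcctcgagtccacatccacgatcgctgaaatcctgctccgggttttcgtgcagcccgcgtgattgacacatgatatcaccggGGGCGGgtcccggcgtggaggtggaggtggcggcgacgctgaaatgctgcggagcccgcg
Dusp6, chr10:99262981-99263230, + strand: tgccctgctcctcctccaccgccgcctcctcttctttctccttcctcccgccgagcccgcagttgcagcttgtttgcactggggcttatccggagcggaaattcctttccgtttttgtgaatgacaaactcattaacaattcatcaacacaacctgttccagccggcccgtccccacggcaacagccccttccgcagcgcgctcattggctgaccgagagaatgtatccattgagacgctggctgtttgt
Fgfrl1 held 1 ETS motif and 4 GC boxes, Spry1 held 1 GC box, and Dusp6 held neither. Among the 35 windows of the members 65.7% held a GC box and 2.86% the ETS motif, against 32.7% and 6.91% of all 32851 windows. The ETS share of the members rests on 1 window. Windows of identical sequence were counted once among the members but not among all windows. The GC box was present in at least 1 window of 9 of 13 members above background and of 10 of 14 members not above it, so its presence did not separate them. None of the 7 feedback and ETS genes with a window held the ETS motif CCGGAAG, which says only that these letters are not in these windows. The median window of the members had 62.4% G and C, against 52.4% over all windows.

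All levels below are log2 of the deposited signal, given for replicates 1, 2 and 3 and as mean ± SD (n = 3). A level is read against the background limit of its array, 3.99, 4.10 and 4.07, which is the 95th percentile of 77 odorant, pheromone, trace-amine and taste receptor genes. Probe sets differ in brightness, so a level says nothing about the level of another gene. A gene was called above background by a one-sided limma test with a Benjamini-Hochberg adjusted p below 0.05 over all 18117 genes tested. Separate cultures are not stated in the labels, so the p-values reflect how far these 3 samples differ, possibly for technical reasons only, and with 3 arrays the precision is limited. Astrocyte markers were above background in 8 of 8 cases, precursor markers in 4 of 4, neuron markers in 3 of 6, oligodendrocyte markers in 2 of 6, microglia and endothelial markers in 1 of 4 each, mesenchymal markers in 1 of 5 and pluripotency markers in 0 of 4 (limma, also 0 at an unadjusted p below 0.05). Of all 18117 genes tested 58.3% were above background, so a pass alone says little about cell type. The array's own control probe sets differed on replicate 3: the 3′ to 5′ signal ratio of beta-actin was 1.12, 1.17 and 1.97 on replicates 1, 2 and 3, and that of Gapdh was 0.769, 0.770 and 1.24. Replicate 3 thus had the highest 3′ to 5′ ratio of both controls.

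Most of the 37 FGF genes were not above background in these cells. Of the 37 genes, 15 were above background (40.5%), against 10568 of all 18117 genes (58.3%). On the level of single probe sets 31 of 84 were above background, against 52.2% of all 34873 probe sets tested. By role, 4 of 5 receptor genes, 7 of 10 feedback and ETS genes and 4 of 22 ligand genes were above it. The ligand genes were counted by symbol and include the FGF homologous factors, which stay inside the cell. Split further, 1 of 15 paracrine ligand genes, 0 of 3 endocrine ligand genes and 3 of 4 homologous factor genes were above background. The median distance from the limit over the 37 genes was 0.06 log2 units, against 1.76 over all genes tested, a description only, since probe sets differ in brightness. Without replicate 3, 15 genes were again above background, with Fgf7 in place of Fgf13. These lists were chosen with results of these data known, and the shares are a description. In a bulk sample, fewer cells of a type and less RNA per cell cannot be told apart.

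**Figure D1:**
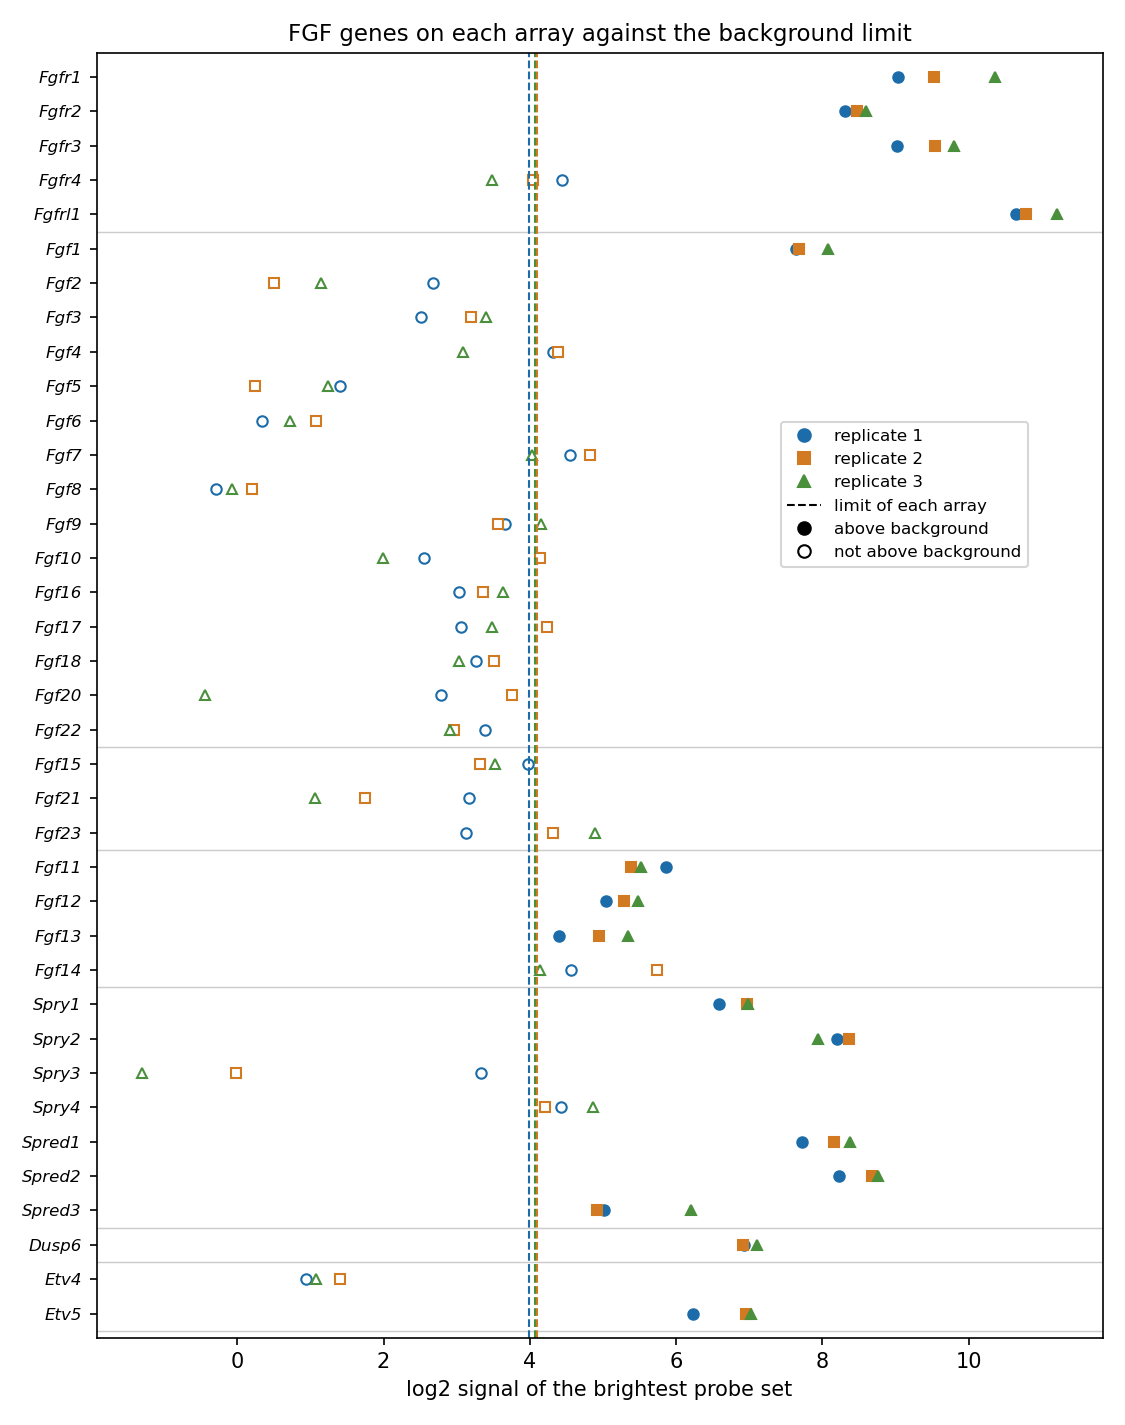
Log2 signal (x axis) of the brightest probe set of each of 37 FGF genes (rows, grouped by role with receptors on top) on the 3 arrays, with 1 point per replicate and a dashed line at each array's background limit. Filled points mark the 15 genes above background, among them 4 of 5 receptor genes and 4 of 22 ligand genes, counted with the homologous factors.

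Fgfr1, a receptor kinase of neural precursors and many other cells, was at 9.03, 9.52 and 10.36. Every array lay far above its limit and replicate 3 was the highest. The mean was 9.64 ± 0.67, which is 5.58 ± 0.30 (SE) log2 units over the limit (adjusted p = 0.000154, limma). All 3 of its probe sets were above background, and each was highest on replicate 3. Its SD exceeded that of 98.5% of all genes above background.

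Fgfr2, a receptor kinase with splice forms of epithelial and mesenchymal type, was at 8.31, 8.47 and 8.59 on its brightest probe set, 8.46 ± 0.14 on average. The 3 arrays lay close together, 4.41 ± 0.13 (SE) over the limit (adjusted p = 4.31e-05, limma). A second probe set of Fgfr2, also above background, was at 7.42, 7.44 and 6.49 and so was lowest on replicate 3. Another reached 3.20 ± 0.40 and was not called (adjusted p = 1 over all probe sets).

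Fgfr3, the receptor kinase that marks astrocytes and their precursors in the neural tube, was at 9.02, 9.54 and 9.79 on its brightest probe set. The mean was 9.45 ± 0.39, or 5.40 ± 0.19 (SE) over the limit (adjusted p = 5.80e-05, limma), with every array above it. The other probe set of Fgfr3 was at 7.13, 6.62 and 4.84, above background as well (adjusted p = 0.0214 over all probe sets). The probe sets therefore moved in opposite directions over the arrays, with the brighter one highest and the dimmer one lowest on replicate 3.

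The gap between the Fgfr3 probe sets was 1.89, 2.92 and 4.96 log2 units, a range of 3.07. Over 7702 pairs of the brightest and another above-background probe set of a gene (4733 genes), the median range was 0.605 and 95% of the pairs lay below 1.85, so the range of Fgfr3 was larger than that of 99.6% of the pairs. Replicate 3 was the array farthest from the middle value in 57.4% of all pairs, against 25.7% for replicate 1 and 16.9% for replicate 2. The same array had the highest 3′ to 5′ control ratios, and the part of RNA quality in the Fgfr3 gap was not tested. Without replicate 3, Fgfr3 was still above background on its brightest probe set.

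Fgfr4, a receptor kinase best known in liver and muscle, was at 4.45, 4.05 and 3.48. Replicate 1 alone exceeded its limit, and the mean of 3.99 ± 0.48 did not pass (adjusted p = 0.926, limma). None of its 5 probe sets was above background. Fgfrl1, a receptor-like protein that binds FGFs but lacks the kinase domain, was at 10.65, 10.79 and 11.20. Its mean of 10.88 ± 0.29 was 6.83 ± 0.16 (SE) over the limit (adjusted p = 3.88e-05, limma), and both of its probe sets passed, with the arrays in the same order. Their gap varied by 0.0653 log2 units over the arrays, a smaller range than in all but 1.51% of the pairs.

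**Figure D2:**
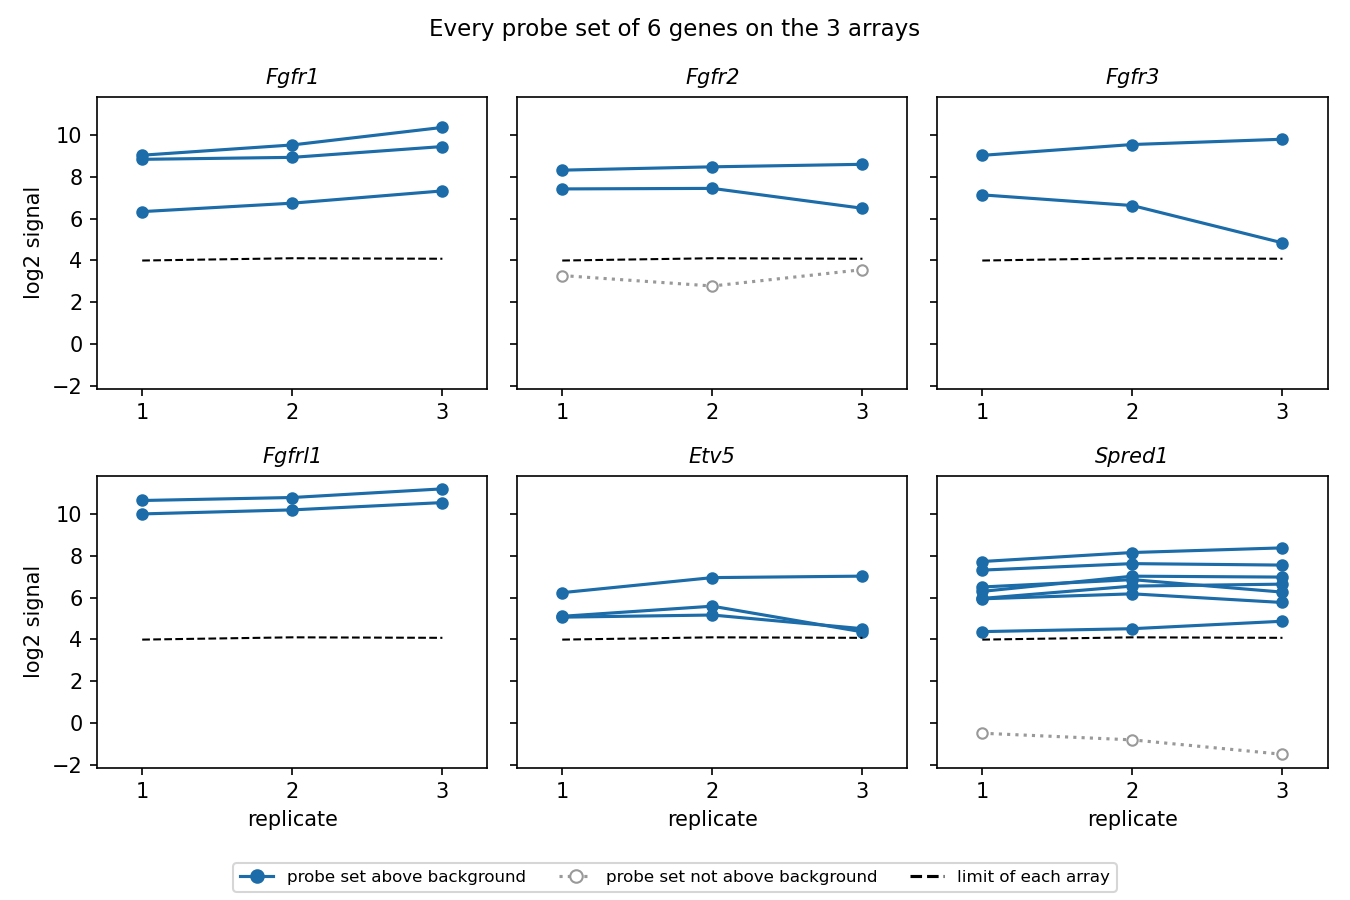
Log2 signal (y axis) of every probe set of Fgfr1, Fgfr2, Fgfr3, Fgfrl1, Etv5 and Spred1 on replicates 1, 2 and 3 (x axis), where a line joins the values of 1 probe set, filled blue points are above background and the dashed line is the limit of each array. Replicates have no order; the probe sets of Fgfr3 lie 1.89, 2.92 and 4.96 log2 units apart while those of Fgfrl1 stay parallel.

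Among 15 paracrine ligand genes 1 was above background, against 58.3% of all genes tested. This was Fgf1, acidic FGF, which binds all 4 signalling receptors and lacks a secretion signal peptide. Fgf1 was at 7.64, 7.68 and 8.08, each well above its limit. Its mean of 7.80 ± 0.24 was 3.75 ± 0.15 (SE) over the limit (adjusted p = 7.85e-05, limma), and 2 of its 3 probe sets passed.

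Fgf2, basic FGF, the factor that had been withdrawn from the medium, was at 2.68, 0.50 and 1.14 on its only probe set. All 3 arrays lay below their limits, replicates 2 and 3 by more than 2 log2 units, and the mean of 1.44 ± 1.12 did not pass (adjusted p = 1, limma). A level under the limit is not absence of the transcript.

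The other 13 paracrine ligand genes did not pass. Fgf7, the keratinocyte growth factor made by mesenchymal cells, came nearest at 4.55, 4.82 and 4.03, with replicates 1 and 2 above their limits and replicate 3 below (4.47 ± 0.40, adjusted p = 0.111, limma). Without replicate 3 Fgf7 passed (adjusted p = 0.0254, limma). Fgf9, first isolated as a growth factor for glia, was at 3.66, 3.57 and 4.15, and replicate 3 alone exceeded its limit. Fgf4 was at 4.32, 4.39 and 3.08, with replicate 3 the array below, and Fgf10 and Fgf17 exceeded the limit on replicate 2 only, at 4.14 and 4.23. Fgf8, of the midbrain and hindbrain organiser, was at -0.29, 0.21 and -0.07, under the limit on each array. Of the 14 paracrine ligand genes that did not pass, 9 lay below the limit on every array, among them Fgf3 of the inner ear at 3.03 ± 0.47, Fgf5 of the hair follicle at 0.96 ± 0.63, Fgf6 of muscle at 0.71 ± 0.36, Fgf16 at 3.34 ± 0.30 and Fgf18, of bone and lung, at 3.27 ± 0.24. Fgf22, which organises synapses in the brain, was at 3.08 ± 0.26. Fgf20 ranged from -0.45 on replicate 3 to 3.75 on replicate 2, so its arrays spread over more than 4 log2 units below the limit.

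None of the 3 endocrine ligand genes was above background (limma, also 0 at an unadjusted p below 0.05), against 58.3% of all genes tested. Fgf15, an intestinal hormone that restrains bile acid synthesis, was at 3.98, 3.32 and 3.52, just under the limit on replicate 1. Fgf21, a hormone of liver and fat metabolism, was at 3.17, 1.74 and 1.07. Fgf23, the bone hormone of phosphate balance, was at 3.13, 4.32 and 4.89. For Fgf23 replicates 2 and 3 exceeded their limits and replicate 1 did not, and the mean of 4.11 ± 0.90 did not pass (adjusted p = 0.706, limma). Endocrine FGFs need the co-receptors Kl or Klb, and these were at 0.78 ± 1.89 and 3.62 ± 0.43, neither above background.

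The FGF homologous factors Fgf11 to Fgf14 stay inside the cell, do not signal through FGF receptors in the classical way and bind the tails of voltage-gated sodium channels. Of these 4 genes 3 were above background. Fgf11 was at 5.87, 5.38 and 5.52 (5.59 ± 0.25, adjusted p = 0.00163, limma), Fgf12 at 5.04, 5.29 and 5.48 (5.27 ± 0.22, adjusted p = 0.00162) and Fgf13 at 4.40, 4.95 and 5.35 (4.90 ± 0.47, adjusted p = 0.0201). Every array of these 3 genes lay above its limit, by 0.85 to 1.53 log2 units on average. Fgf11 and Fgf13 each passed on 1 of 2 probe sets, and with the middle value of each gene's probe sets they lay -0.0475 and -0.49 log2 units from the limit. Fgf12 passed on 2 of 3 probe sets, with the other at 3.52 ± 0.03, and Fgf14 on none of 4. Fgf13 did not pass without replicate 2 (adjusted p = 0.0724) or without replicate 3 (adjusted p = 0.0562, limma). Fgf14 was at 4.56, 5.74 and 4.14, above the limit on all 3 arrays but spread by 0.83 (SD), and did not pass (4.81, adjusted p = 0.0983). These factors are best known from neurons. Of 6 neuron markers 3 were above background (Rbfox3, Syt1 and Map2), against 58.3% of all genes tested. Rbfox3 passed on 2 of 3 probe sets, Syt1 on 1 of 4 and Map2 on 3 of 4. The summed signal of the 6 genes ranged from 1938 to 2399 over the arrays and came mostly from Map2, at 10.74, 10.95 and 11.05. Since probe sets differ in brightness, the sum does not give each gene's share of transcript. Snap25, Stmn2 and Nefl were at 2.02 ± 0.50, 1.93 ± 0.75 and 2.10 ± 0.26. The part of neurons in the levels of the homologous factors was not tested.

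Of the 10 feedback and ETS genes 7 were above background (70%), close to the 58.3% of all genes tested. Spry1 and Spry2 encode Sprouty proteins, which block RAS-ERK signalling below receptor kinases. Spry1 was at 6.59, 6.97 and 6.98 (6.85 ± 0.23, adjusted p = 0.000127, limma), and Spry2 at 8.20, 8.36 and 7.94 (8.17 ± 0.21, adjusted p = 6.27e-05). Both exceeded the limit on each array, Spry1 by 2.79 ± 0.14 and Spry2 by 4.11 ± 0.15 log2 units (SE), although 1 of the 2 probe sets of Spry2 was at 3.75 ± 0.31 and did not pass.

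Spry4 and Spry3, the other Sprouty genes, did not pass. Spry4 was at 4.42, 4.21 and 4.86, above the limit on every array by 0.44 ± 0.19 (SE), with an unadjusted p of 0.0432 and an adjusted p of 0.0733 (limma). None of its 4 probe sets passed. Spry3 was at 3.34, -0.02 and -1.30, below the limit on all arrays and with an SD of 2.40.

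The Spred proteins bind neurofibromin and bring it to the membrane, where it switches RAS off. All 3 Spred genes were above background, against 58.3% of all genes tested, so the count alone says little. Spred1 was at 7.73, 8.16 and 8.38 (8.09 ± 0.33, adjusted p = 8.40e-05, limma), and 7 of its 8 probe sets passed. Spred2 was at 8.23, 8.67 and 8.75 (8.55 ± 0.28, adjusted p = 5.56e-05) on the brightest of 5 probe sets, of which 2 passed. With the median of its probe sets Spred2 was 0.38 log2 units over the limit and no longer passed (adjusted p = 0.326, limma). Spred3 was at 5.01, 4.91 and 6.20 on its only probe set, so replicate 3 stood more than 1 log2 unit above the others (5.37 ± 0.72, adjusted p = 0.0174).

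Dusp6, the phosphatase that removes the activating phosphates of ERK, was at 6.93, 6.91 and 7.10. The 3 arrays agreed within 0.19 log2 units, and the mean of 6.98 ± 0.10 was 2.93 ± 0.13 (SE) over the limit (adjusted p = 8.96e-05, limma). Of all genes above background 14.7% had an SD as small or smaller, on signal not adjusted for shifts between arrays. With each array's median over all genes above background subtracted, Dusp6 lay 0.13, -0.09 and -0.04 from its own mean. Etv5, an ETS factor switched on by FGF receptors, was at 6.24, 6.96 and 7.03 (6.74 ± 0.44, adjusted p = 0.000415), and all 3 of its probe sets passed. The dimmer probe sets of Etv5 were at 5.10, 5.59 and 4.36 and at 5.06, 5.17 and 4.51, lowest on replicate 3, where the brightest was highest. Etv4, its close relative, was at 0.94, 1.402 and 1.08 (1.14 ± 0.24), far below the limit on each array and on both probe sets (adjusted p = 1, limma).

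Fgfr1 and Spred3 varied most over the arrays among the FGF genes above background. The median SD of the 15 FGF genes was 0.283, against 0.239 over all 10568 genes above background, and 2 of them (13.3%) had an SD over 0.5, against 7.38% of all. Once each array's median over all genes above background was subtracted, replicate 3 gave the highest value in 8 of the 15 genes, including Fgfr1 at 0.56 and Spred3 at 0.66 log2 units above their own means, and the lowest in 3, including Spry2 at -0.39. Fgf11 stood out in the other direction, with its highest value on replicate 1 (0.46). How often replicate 3 was highest among all genes above background was not counted, so 8 of 15 is a description only. Replicate 3 also had the highest 3′ to 5′ control ratios, and the part of RNA quality in these deviations was not tested.

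**Figure D3:**
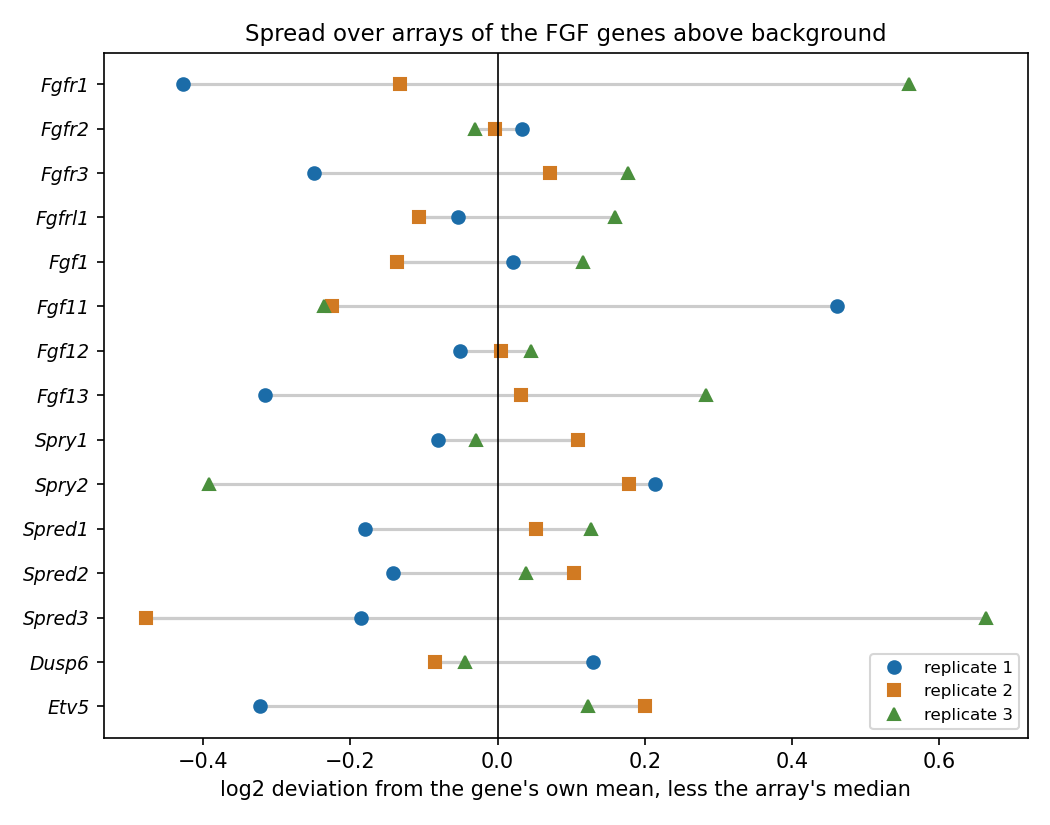
Deviation of each array from the gene's own mean in log2 units, less the array's median over all genes above background (x axis), for the 15 FGF genes above background (rows), with 1 marker per replicate. Fgfr1 and Spred3 spread most, with replicate 3 highest at 0.56 and 0.66, and Fgfr2 and Fgf12 spread least.

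The wider lists held FGF-binding cofactors, heparan sulfate and cascade genes, RAS-ERK inhibitors, ERK targets and sodium channel genes. Of these, 60 of 76 measured genes (78.9%) were above background, against 58.3% of all genes tested. All 16 measured genes for adaptors and the RAS-ERK cascade were, including the adaptors Frs3 at 5.18 ± 0.22, Grb2 at 8.39 ± 0.30 and Shc1 at 7.09 ± 0.14 and the phosphatase gene Ptpn11 at 10.81 ± 0.15. Of the 24 genes of that list, 8 were not analysed here. Among 20 heparan sulfate genes 17 were above background, among them the chain-building enzymes Ext1 at 9.56 ± 0.17, Ext2 at 8.89 ± 0.18 and Extl3 at 8.82 ± 0.44 and the sulfotransferase Ndst2 at 6.79 ± 0.48. The 3 that did not pass were Sulf1, Gpc3 and Gpc5. With the median of each gene's probe sets, 48 of the 76 genes were above background, against 50.5% of all genes tested. Ptpn11, Sos1, Plcg1 and Ksr1 of the cascade and Ext2 were among those that lost the call. Ptpn11 and Ext2 each passed on 1 of 3 probe sets.

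Among 9 FGF-binding cofactors 7 were above background, with the carrier proteins Fgfbp1 at 4.95 ± 0.15 and Fgfbp3 at 7.33 ± 0.22, and the remaining pair was Kl and Klb. For this list and those that follow, the share to compare is the 58.3% of all genes tested. Of 12 further inhibitors of RAS-ERK signalling 10 passed, including the GTPase-activating proteins of RAS Nf1 at 6.19 ± 0.22 and Rasa1 at 8.55 ± 0.17, and the ubiquitin ligases Cbl at 8.62 ± 0.23 and Cblb at 7.40 ± 0.23. Dusp4 and Dusp9, both ERK phosphatases like Dusp6, were at 1.46 ± 2.20 and 2.53 ± 0.53 and did not. Nf1 and Cbl each passed on 1 of 3 probe sets and lost the call with the median of the probe sets. Early target genes of ERK were above background in 8 of 12 cases, with Fos at 10.43 ± 0.35 and Egr1 at 9.62 ± 0.81, while Fosl1 and Egr2 were at 1.19 ± 1.41 and 3.37 ± 0.85 and did not pass. Serum had been present for 5 days and acts on many of the same genes, so FGF and serum input cannot be told apart. Of 7 sodium channel alpha subunit genes, the partners of the homologous factors, 2 were above background, namely Scn2a at 5.74 ± 0.22 and Scn8a at 6.20 ± 0.28, whereas Scn1a was at 1.24 ± 0.83 and Scn3a at 4.70 ± 0.61 (adjusted p = 0.0661, limma). Scn2a passed on 2 of 4 probe sets and Scn8a on 1 of 5, and with the median of the probe sets neither gene passed.

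**Figure D4:**
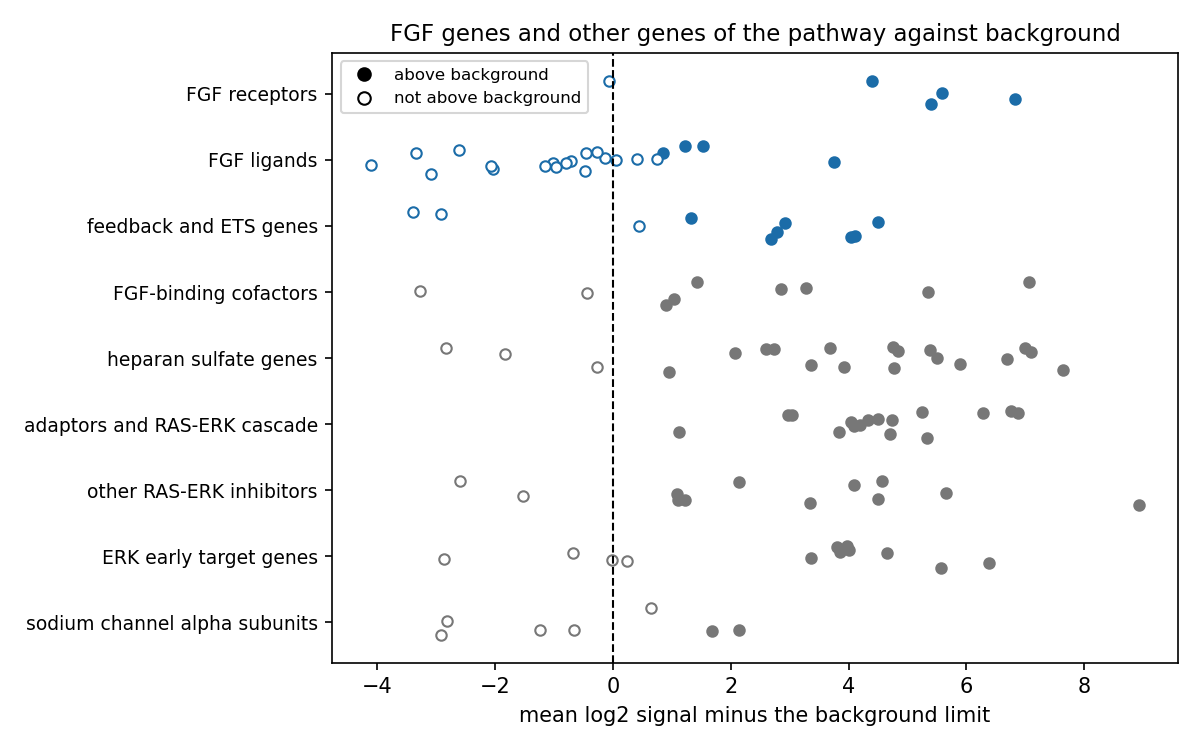
Mean log2 signal minus the background limit (x axis) of each gene in 3 groups of FGF genes (blue, top rows) and 6 lists of other genes of the pathway (grey), with filled points for genes above background. Filled points make up 4 of 5 receptor genes, 4 of 22 ligand genes, counted with the homologous factors, and 7 of 10 feedback and ETS genes. Distances are not comparable between genes.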

How the data were processed

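The 3 arrays form 1 group. The authors deposited linear intensity values, 1 for each probe set on each array, from GCOS 1.4 per the submitters' processing notes. The sources used here give no algorithm settings, scaling or detection calls. Log2 was taken with no pseudocount. Probe sets of 1 gene (34958 of 45101) were named through the platform annotation, 932 had several genes and 9211 none there. The 37 member symbols equal those of GRCm38.p6. A gene took its probe set with the highest mean, and every member is named. For each wider list the first 4 measured genes in list order were named. Sulf1, Gpc3, Gpc5, Dusp4, Dusp9, Sos1, Plcg1 and Ksr1 were named after their values were seen. The members and lists were chosen with earlier results of these data known. Levels minus the limit were tested with limma 3.58.1 in R 4.3.3 (one-sample, one-sided, eBayes), with probe sets in a second fit. The fit was tested on simulated data. Alternatives covered the limit, probe sets, normalization, pseudocount, variance prior, filter and single replicates.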

Additional observations from a re-analysis of the deposited data

How the results depend on the processing

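Over the 12 alternatives, 12 of the 15 FGF genes above background kept their call in each, all 4 receptor genes among them. The count of FGF genes ran from 12 (median of a gene's probe sets) to 18 (limit at the 90th percentile), and was 14 to 15 without single replicates. With the median of the probe sets 2 ligand genes, counted with the homologous factors, were above background in place of 4. The wider pathway genes gave 48 of 76 there, in place of 60. Fgf11 then lay at -0.0475 and Fgf13 at -0.49 log2 units from the limit, and Spred2 no longer passed. Fgf13 also lost its call without replicate 2 or replicate 3. At the 90th percentile Fgf7, Fgf14 and Spry4 passed, and Fgf14 also with a trended, robust variance prior. Leaving out probe sets that can bind several transcripts, quantile normalization, a common trimmed mean, a pseudocount of 16 and the limit at the 99th percentile each gave 15. No paired analysis was possible because all samples form 1 group. The signal of a gene near the limit sets what can be seen.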
